A study of Mus musculus with 12 samples.

Results

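Ion channels of vascular smooth muscle were followed in the thoracic aorta of ApoE-/- mice through 10 genes: Kcnma1, Kcnmb1, Kcna5, Kcnj8, Abcc9, Cacna1c, Trpc6, Ano1, Itpr1 and Ryr3. The genes were chosen by symbol, for the potassium, calcium, cation, chloride or intracellular calcium release channel each encodes, and all 10 have a row among the 25284 genes of the count table. The 12 mice were male ApoE-/- mice on a C57BL/6 background, fed a high fat, cholesterol enriched diet from 10 weeks of age, and the aortas came from mice aged 18 weeks. For 8 weeks, osmotic minipumps under the skin delivered either vehicle (cyclodextrin in saline) to 6 control mice, called C1 to C6 here, or AZ6983 at 50 µmol per kg per day to 6 mice, called A1 to A6. AZ6983 is an agonist of the alpha 7 nicotinic acetylcholine receptor (α7nAChR). Both groups lack apolipoprotein E in every tissue, so no value below comes from a mouse with normal lipoprotein clearance. The vessel was sequenced whole, and fewer smooth muscle cells cannot be told apart from less channel RNA in each cell.

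Smooth muscle cells of the artery wall contract when calcium enters the cytoplasm, through L-type calcium channels in the surface membrane or from the sarcoplasmic reticulum through inositol trisphosphate (IP3) and ryanodine receptors. Potassium channels hold the membrane potential negative and so keep the voltage-gated calcium channels closed, while calcium-activated chloride channels and receptor-operated cation channels depolarize the cell. The large-conductance calcium-activated potassium (BK) channel and the ATP-sensitive potassium (KATP) channel are each built from a pore subunit and a second subunit that sets its sensitivity, and both are targets of vasodilator signals.

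The promoters of both subunit pairs are shown because the RNA of these 4 genes rose and fell together across the mice, and that of Trpc6 because it is the member whose promoter window holds a CArG box. Each window runs from 250 bases before the RefSeq transcript start to 50 bases from the start on, 5′ to 3′ on the strand of the gene, in GRCm38.p6. Capitals mark matches to 3 motifs searched on both strands: the CArG box, bound by serum response factor in contractile genes, the GC box GGGCGG and the MCAT motif CATTCC.
Kcnma1 promoter, chr14:24004156-24004455, minus strand: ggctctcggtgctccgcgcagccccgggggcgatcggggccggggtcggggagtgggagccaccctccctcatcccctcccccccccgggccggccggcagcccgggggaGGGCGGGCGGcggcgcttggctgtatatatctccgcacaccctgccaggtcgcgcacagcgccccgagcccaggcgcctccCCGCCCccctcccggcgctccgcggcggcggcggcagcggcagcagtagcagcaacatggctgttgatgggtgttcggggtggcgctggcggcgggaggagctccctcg
Kcnmb1 promoter, chr11:33962763-33963062, plus strand: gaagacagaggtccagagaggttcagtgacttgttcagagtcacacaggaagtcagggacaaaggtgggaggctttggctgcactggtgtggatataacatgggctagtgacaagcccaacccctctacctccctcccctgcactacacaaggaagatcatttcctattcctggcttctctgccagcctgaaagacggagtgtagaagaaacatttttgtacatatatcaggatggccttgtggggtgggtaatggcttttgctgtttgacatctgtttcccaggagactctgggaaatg
Kcnj8 promoter, chr6:142571565-142571864, minus strand: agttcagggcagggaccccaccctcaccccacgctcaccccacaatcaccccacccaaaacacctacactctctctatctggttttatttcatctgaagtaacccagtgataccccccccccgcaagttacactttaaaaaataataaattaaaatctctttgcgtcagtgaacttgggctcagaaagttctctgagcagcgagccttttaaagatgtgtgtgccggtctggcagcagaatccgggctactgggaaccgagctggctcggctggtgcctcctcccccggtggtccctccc
Abcc9 promoter, chr6:142702225-142702524, minus strand: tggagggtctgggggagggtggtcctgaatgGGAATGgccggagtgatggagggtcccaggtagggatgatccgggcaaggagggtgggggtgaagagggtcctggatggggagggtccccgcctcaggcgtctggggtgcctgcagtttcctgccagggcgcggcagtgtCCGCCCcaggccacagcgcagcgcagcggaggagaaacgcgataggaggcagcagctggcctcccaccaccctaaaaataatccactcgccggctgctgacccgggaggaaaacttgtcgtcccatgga
Trpc6 promoter, chr9:8543892-8544191, plus strand: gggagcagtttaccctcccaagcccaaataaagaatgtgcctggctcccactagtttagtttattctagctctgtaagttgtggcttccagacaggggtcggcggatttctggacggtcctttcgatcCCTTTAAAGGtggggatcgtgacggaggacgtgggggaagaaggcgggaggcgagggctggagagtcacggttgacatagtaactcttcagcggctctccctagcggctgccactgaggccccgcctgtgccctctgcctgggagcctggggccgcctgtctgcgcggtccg

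A CArG box was found in the window of 1 of the 8 members with a promoter in the RefSeq table, Trpc6, as CCTTTAAAGG from 122 bases before the start. Over all 32851 windows searched, which leave out 1 chromosome that holds no member, 1.63% held one. The 8 members have 10 windows, of which 3 are Cacna1c's, so the count to set beside that share is 1 of 10 windows. The GC box was found in 4 of the 10, 1 each of Kcnma1, Abcc9, Cacna1c and Ano1, which is near its share of 35.7% over all windows. In Kcnma1 a pair of GC boxes overlap, so they appear as 1 run of capitals, and another lies 59 bases before the start. Abcc9 has 1 GC box and 1 MCAT motif, Kcna5 has 1 MCAT motif (14.7% of all windows hold this motif), and neither Kcnmb1 nor Kcnj8 holds any of the 3. Itpr1 and Ryr3 have no entry in the table. The genes of the KATP channel are neighbours: Kcnj8 spans chr6:142564837-142571614 and Abcc9 chr6:142587862-142702315 on the minus strand, with 16247 bases between them. Kcna5, Cacna1c and Itpr1 lie on chromosome 6 too, so 5 of the 10 members share it.

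The 12 libraries held 23810036 to 35864666 counts on genes, and values are given as CPM (edgeR's cpm function), which relate a gene's counts to the total of its library after TMM scaling. Smooth muscle identity was clear in each library. Its 9 markers (among them Myh11, Acta2 and Tagln) summed to 14239 to 18964 CPM in control and 11137 to 18998 in AZ6983 mice. In the test between groups 0 of the 9 passed, and no other gene of the table did either. Some libraries also carried RNA of neighbouring tissues in unequal amounts. In A5, the 10 most abundant genes took 30.2% of counts (at most 22.1% in any other mouse). Smooth muscle markers were lowest there in their sum and in their mean log2 CPM. Of that list, Des was at 102 CPM in A5 and lowest in C5 (59.8 CPM), Smtn was lowest in C5 and Myocd in A1. A4 held 980 summed CPM of thymocyte and T cell markers against at most 38.5 elsewhere. Brown fat markers summed to 2173 to 5352 CPM, with A5 highest. Reads on no gene took 8.02% to 10.4% of reads in 5 control mice, 12.7% in C2 and 11.2% to 14.9% in AZ6983 mice, so that 1 control mouse lay among the AZ6983 mice and the other 5 lay below them.

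The levels of the members covered about 3 orders of magnitude. Per kilobase of annotated exon, Abcc9, the sulfonylurea receptor SUR2 that regulates the KATP channel, was highest at 60.5 ± 7.03 CPM per kilobase (SD, n = 12), followed by Itpr1, the type 1 IP3 receptor, at 29.3 ± 1.30. Kcnj8, the KATP pore Kir6.1, was at 20.3 ± 2.40, Kcnmb1, the beta 1 subunit of the BK channel, at 14.6 ± 2.30, and Ano1, the calcium-activated chloride channel TMEM16A, at 13.4 ± 1.64. Kcna5, the voltage-gated potassium channel Kv1.5, was at 3.91 ± 1.21, Kcnma1, the BK pore, at 3.70 ± 0.435, and Cacna1c, the pore of the L-type calcium channel Cav1.2, at 2.43 ± 0.527. Trpc6, a receptor-operated cation channel, was at 0.565 ± 0.318 and Ryr3, the type 3 ryanodine receptor, at 0.0446 ± 0.0158 CPM per kilobase. On this scale Abcc9 stood above Itpr1 and Itpr1 above Kcnj8 in 12 of 12 mice. Neighbours that did not differ beyond their spread were Kcnmb1 and Ano1, with the first higher in 7 of 12 mice, and Kcna5 and Kcnma1, with the first higher in 8 of 12. The ranges of Kcnma1 and Cacna1c also overlapped, although Kcnma1 was higher in 12 of 12 mice, and so did those of Kcnj8 and Kcnmb1. Scaled by the longest coding transcript instead, Itpr1 moved most, to 54.5 CPM per kilobase against 67.5 for Abcc9, and Abcc9 was then higher in 11 of 12 mice, with A5 at 52.8 for Abcc9 and 57.1 for Itpr1. On that scale Ano1 stood above Kcnmb1 (18.3 against 14.6 CPM per kilobase) and Kcnma1 above Kcna5 (5.19 against 3.91), with Cacna1c level with Kcna5 at 3.91.

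**Figure D1:**
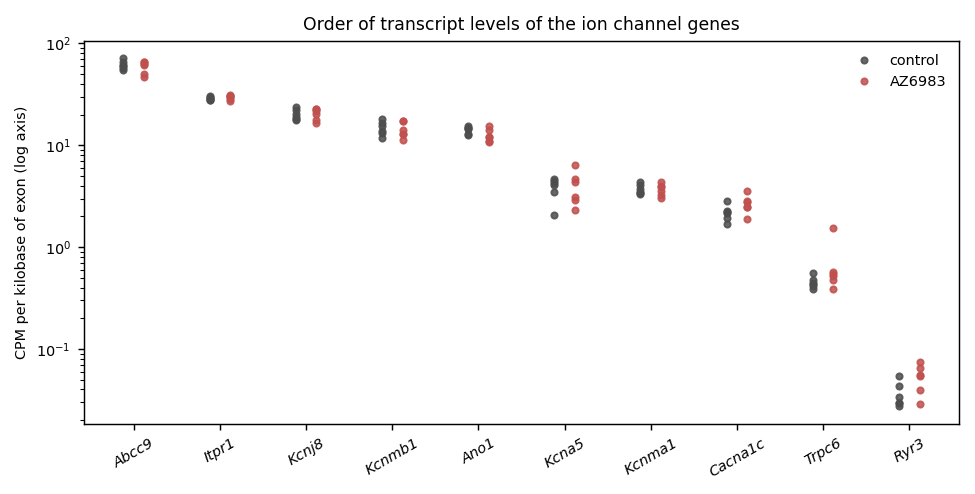
CPM per kilobase of exon on a log axis for the 10 genes, ordered by mean level; each point is 1 mouse, grey for control and red for AZ6983. Abcc9 lies near 60.5 and Ryr3 near 0.0446, and the grey and red points overlap for each gene, with 1 AZ6983 mouse apart in Trpc6.

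Whether α7nAChR stimulation altered the RNA of these channels was asked by comparing the 6 AZ6983 with the 6 control mice. By the quasi-likelihood test of edgeR, 0 of the 10 channel genes passed 10% FDR, with adjusted p from 0.489 to 0.968. Of all 15857 genes tested 0.0% passed in edgeR, so the members do not stand apart from the rest of the table in this. The study, with DESeq2 at 10% FDR, lists up- and down-regulated genes, and DESeq2 with its defaults called 92 genes here. No member is in either list. In edgeR an unadjusted p under 0.05 was found for 1 of 10 members, Ryr3, against 10.2% of all genes tested. The groups were without overlap for 0 of the 10, against 0.41% of all genes. The log2 fold change was above 0 for 6 members and below 0 for 4, with a median of 0.025 against 0.0090 for all genes tested.

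**Figure D2:**
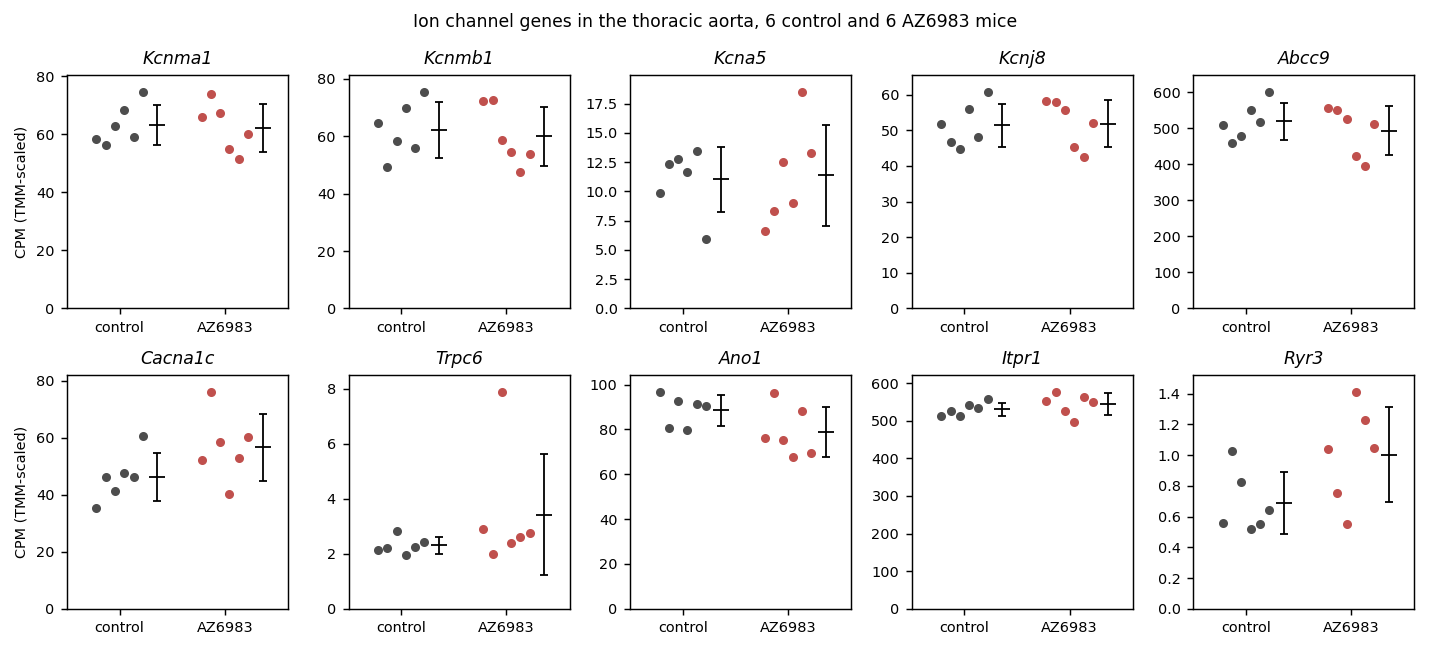
CPM of each of the 10 genes in the 6 control (grey) and 6 AZ6983 (red) mice, in the order C1 to C6 and A1 to A6 from left to right; the black mark is the mean with 1 SD. The groups overlap in every panel, and the single high point of Trpc6 is mouse A3 at 7.88 CPM.

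The BK channel opens when calcium rises beneath the membrane, and its beta 1 subunit raises its calcium sensitivity in smooth muscle. Kcnma1 (chr14:23289431-24014491) had a lowest, median and highest value of 56.5, 61.0 and 74.7 CPM in control mice and 51.4, 63.0 and 73.9 CPM in AZ6983 mice. Its log2 fold change was −0.024 (SE, the standard error, 0.0962, 95% interval −0.23 to 0.18, adjusted p = 0.945). That interval spans folds of the BK pore RNA from 0.851 to 1.14. Its exons share 1016 bases with an RNA gene on the opposite strand, 4930519K11Rik, which has no row in the count table. Kcnmb1 (chr11:33963013-33973641) was at 49.1, 61.4 and 75.5 CPM (lowest, median and highest) in control mice and at 47.6, 56.6 and 72.5 CPM in AZ6983 mice. Its log2 fold change was −0.053 (SE 0.125, 95% interval −0.32 to 0.22, adjusted p = 0.899). For both subunits C6 was the highest and A5 the lowest of the 12 mice.

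The KATP channel couples membrane potential to the metabolic state of the cell and is opened by vasodilators that raise cyclic AMP. Kcnj8 ran from 44.7 through a median of 50.0 to 60.8 CPM in control mice and from 42.4 through 53.8 to 58.1 CPM in AZ6983 mice. Its log2 fold change was 0.015 (SE 0.0978, 95% interval −0.20 to 0.23, adjusted p = 0.968). Abcc9 ran from 459 through 513 to 601 CPM in control mice and from 396 through 518 to 556 CPM in AZ6983 mice. Its log2 fold change was −0.073 (SE 0.101, 95% interval −0.29 to 0.15, adjusted p = 0.809). Again C6 was highest and A5 lowest for both genes. Kcnj8 and Abcc9 also mark pericytes, the mural cells of small vessels, so their RNA need not all come from the medial smooth muscle. The 7 pericyte markers summed to 2749 to 3814 CPM in control and 2581 to 3653 CPM in AZ6983 mice, and most of this sum was Rgs5 (3085 CPM in C6, the highest mouse, and 1995 in A5, the lowest). Other markers of the list had another order. Higd1b was lowest in C6 (1.19 CPM) and highest in A5 (2.82 CPM), Notch3 and Vtn were highest in A5, and the mean log2 CPM of the 7 markers was highest in A5 as well.

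Kcna5 (chr6:126532551-126535412), whose channel limits depolarization of arterial smooth muscle, had the widest spread of the 8 members with more than 100 counts in each mouse. Its lowest, median and highest values were 5.95, 12.01 and 13.5 CPM in control mice and 6.61, 10.8 and 18.5 CPM in AZ6983 mice, from 175 to 453 counts per mouse. AZ6983 against control gave a log2 fold change of 0.044 (SE 0.249, 95% interval −0.50 to 0.58, adjusted p = 0.962), and its sign turned without A5 (−0.17). Here the order of the outer mice was the reverse of that for BK and KATP: C6 was lowest and A5 highest. C6 was also lowest and A5 highest in the summed white fat markers (2489 and 6097 CPM), to which Fabp4 contributed most. Of the same list, Lep was highest in C6 (57.5 CPM, against at most 10.7 elsewhere), and the mean log2 CPM of the list was highest in A5 but lowest in C3. The part of fat in the Kcna5 value was not tested.

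Calcium entry from outside the cell was represented by Cacna1c, the target of dihydropyridine calcium blockers, and by Trpc6, which diacylglycerol opens downstream of contractile receptors. Cacna1c (chr6:118587240-119196418) was at 35.5, 46.3 and 60.7 CPM (lowest, median and highest) in control mice and at 40.2, 55.8 and 76.0 CPM in AZ6983 mice, and 5 of 6 AZ6983 mice exceeded the control median. The log2 fold change was 0.29 (SE 0.147, 95% interval −0.026 to 0.61), with an unadjusted p of 0.0687 and an adjusted p of 0.511, and so did not pass the threshold. The mouse with the lowest Cacna1c, C1, had the lowest share of reads on no gene (8.02%), and the mouse with the highest, A2, had the highest share (14.9%). Other mice had another order, with C6 at 60.7 CPM and a share of 10.4%, and A4 at 40.2 CPM and 12.3%. With that share as a covariate the log2 fold change of Cacna1c was −0.032 (adjusted p = 0.9998), and without A2 it was 0.18. Most control mice had a lower share than every AZ6983 mouse, so share and treatment cannot be told apart in this fit. The part of the share in the Cacna1c values was not tested.

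Trpc6 (chr9:8544142-8680741) had 53 to 82 counts per control mouse, or 1.97, 2.23 and 2.83 CPM (lowest, median and highest). In AZ6983 mice it was at 1.98, 2.69 and 7.88 CPM, where the highest value, 201 counts, belonged to A3 and the next highest, in A1, was 2.90 CPM. The log2 fold change of 0.57 (SE 0.303, 95% interval −0.087 to 1.22, adjusted p = 0.530) therefore rested on A3 and was 0.13 without it (adjusted p = 0.731).

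Ano1 (chr7:144588549-144751974), which carries a depolarizing chloride current when calcium rises, had the most negative log2 fold change of the members. Its lowest, median and highest values were 79.7, 90.8 and 96.7 CPM in control mice and 67.9, 75.6 and 96.5 CPM in AZ6983 mice. The values of A1, A3, A4 and A6 lay below the lowest control, whereas A2 (96.5 CPM) and A5 (88.4 CPM) lay among the controls. For Ano1, AZ6983 against control was −0.17 on the log2 scale (SE 0.0898, 95% interval −0.36 to 0.028), with an unadjusted p of 0.0867 and an adjusted p of 0.532. It stayed below 0 in each of the 23 alternatives, between −0.25 (without A2) and −0.13, and its adjusted p was never under 0.255.

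Calcium release from the sarcoplasmic reticulum was represented by Itpr1 and Ryr3. Itpr1 (chr6:108213096-108551109), with 13335 to 18634 counts per mouse, was the steadiest of the 10, since its highest mouse was 1.16 times its lowest. It was at 512, 531 and 557 CPM (lowest, median and highest) in control mice and at 496, 552 and 576 CPM in AZ6983 mice. In log2 fold change this was 0.036 (SE 0.0577, 95% interval −0.089 to 0.16, adjusted p = 0.840). This interval spans folds from 0.940 to 1.12, the narrowest of the members. Ryr3 (chr2:112631355-113217096) was at the other end of the scale, with 14 to 26 counts in a control mouse and 14 to 53 after AZ6983. In CPM it was at 0.521, 0.602 and 1.03 (lowest, median and highest) in control mice and 0.549, 1.04 and 1.41 in AZ6983 mice. The highest control was exceeded in 4 of 6 AZ6983 mice, and A4 was highest. The log2 fold change was 0.55 (SE 0.252, 95% interval 0.0011 to 1.09), with an unadjusted p of 0.0496 and an adjusted p of 0.489. It was 0.42 without A4 and 0.67 without C2. Exons of Ryr3 share 916 bases with Aven on the opposite strand, which had 291 to 406 counts per mouse. The strand setting of the counting is not given. Whether reads in the shared bases were given to 1 of the genes or left out as ambiguous is therefore not known.

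**Figure D3:**
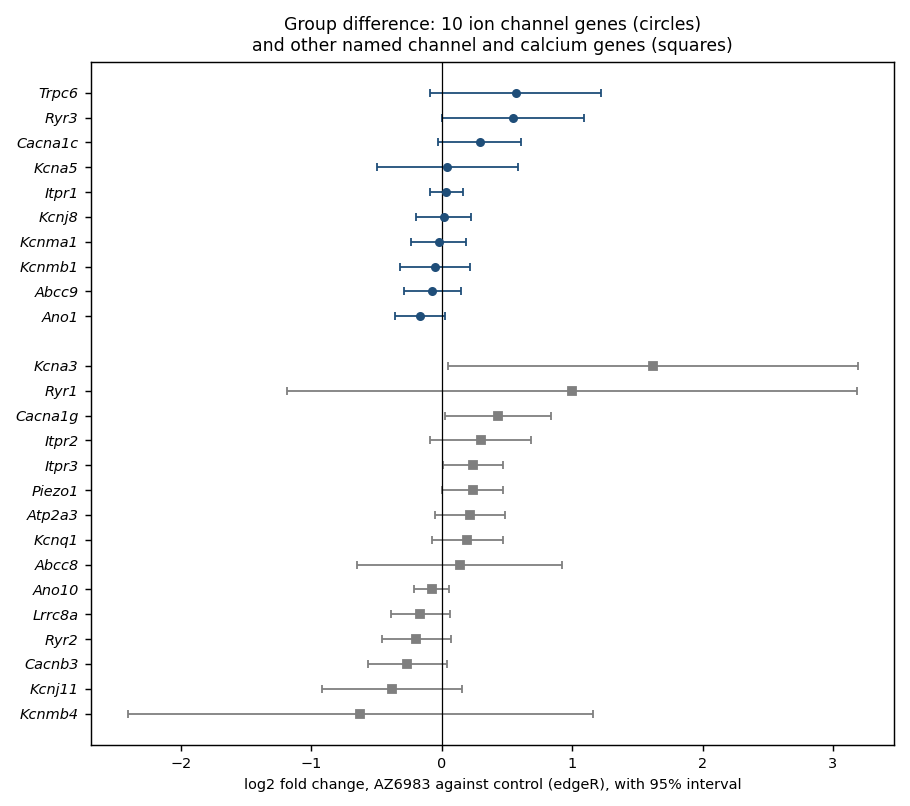
Log2 fold change of AZ6983 against control mice from edgeR with its 95% interval, for the 10 members (blue circles) and named genes of the role lists (grey squares). The interval of every member except Ryr3 (0.0011 to 1.09) holds 0.

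The RNA of both subunits of a channel varied together from mouse to mouse, and so did that of subunits of different channels. Across the 12 mice, log2 CPM of Kcnma1 and Kcnmb1 gave Pearson's r = 0.868 (permutation p = 0.00035) and Spearman's rho = 0.860 (permutation p = 0.00059). Kcnj8 and Abcc9 gave r = 0.925 and rho = 0.958 (permutation p = 1e-05 each, the smallest that 100000 draws can give). Adjusted over these 2 relations, the p of r was 0.00035 and 2e-05. Without the 2 mice farthest from the median of the pore subunit, r was 0.783 for the BK pair (without C6 and A2) and 0.878 for the KATP pair (without C6 and A5). Within groups, r of the BK pair was 0.860 in control (exact permutation p = 0.0347) and 0.877 in AZ6983 mice (exact permutation p = 0.0292). For the KATP pair it was 0.931 in control (exact permutation p = 0.00833) and 0.993 in AZ6983 mice (exact permutation p = 0.00139). Between the channels, with no test, r was 0.895 for Kcnma1 with Abcc9, 0.882 for Kcnma1 with Kcnj8, 0.870 for Kcnmb1 with Kcnj8 and 0.857 for Kcnmb1 with Abcc9. Kcnma1 thus varied with the KATP subunits at least as closely as with Kcnmb1, and the relation is not particular to a pair. The 4 genes share libraries and a scaling factor, and the summed smooth muscle markers were lowest in A5 as well.

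The ratio of 2 subunits is read within 1 library, so the scaling between libraries has little part in it. The log2 ratio of Kcnmb1 to Kcnma1 was −0.034 ± 0.122 (SD, n = 6) in control mice and −0.062 ± 0.120 (SD, n = 6) in AZ6983 mice, a difference of −0.028 (exact permutation test, two-sided, p = 0.686). The log2 ratio of Abcc9 to Kcnj8 was 3.34 ± 0.0635 (SD, n = 6) in control mice and 3.25 ± 0.0287 (SD, n = 6) in AZ6983 mice. The difference was −0.092 (two-sided exact permutation p = 0.00649, and 0.0130 adjusted over the 2 ratios). It was larger than the SD of either group, but the ranges overlapped (3.29 to 3.42 in control and 3.22 to 3.30 in AZ6983 mice). Of the AZ6983 mice, 5 of 6 lay below the lowest control (3.29), between 3.22 and 3.26, while A6 was at 3.30. Among the controls, C3 (3.42) and C5 (3.42) lay highest and the other 4 were between 3.29 and 3.30. With any 1 mouse left out the difference stayed between −0.10 and −0.075 and the adjusted p was at most 0.0390. Neither gene of this ratio passed the test by itself.

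**Figure D4:**
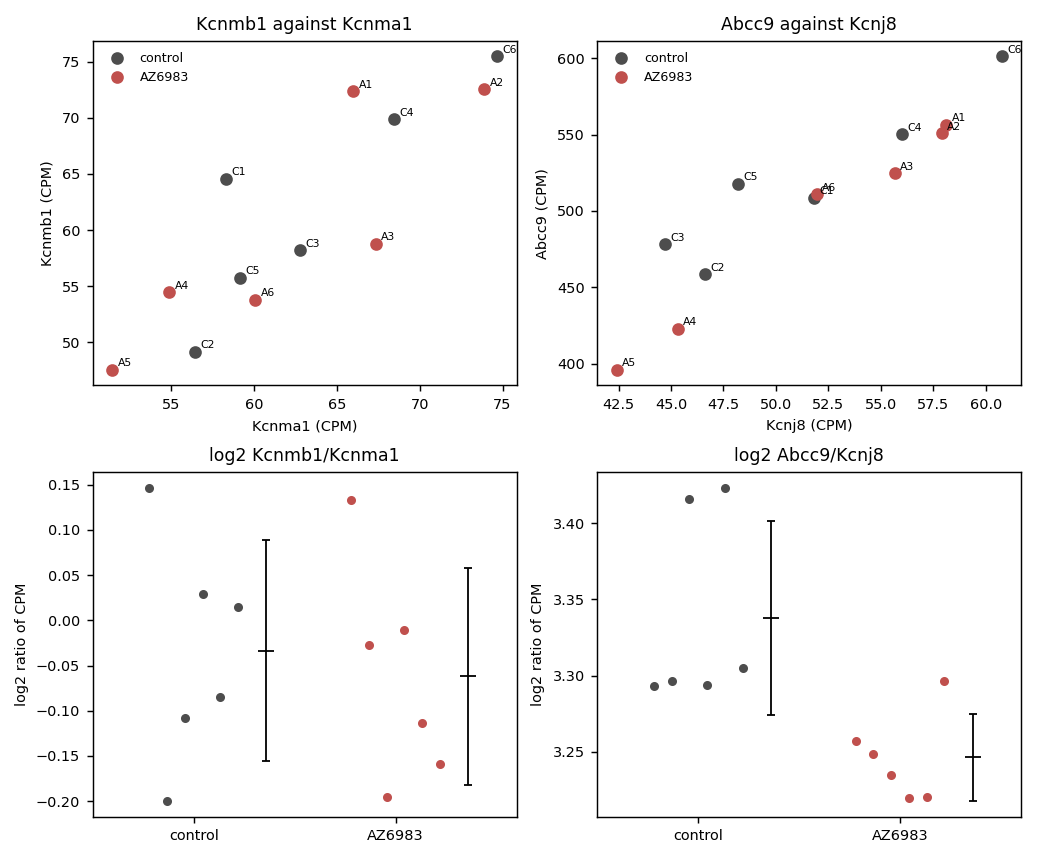
Top, CPM of Kcnmb1 against Kcnma1 and of Abcc9 against Kcnj8, 1 labelled point per mouse, grey for control and red for AZ6983. Bottom, the log2 ratio of each pair by group with mean and SD; the axes do not start at 0, and the Abcc9 to Kcnj8 ratio is lower in 5 of 6 AZ6983 mice than in any control.

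The extreme values of several members fell in the same mice. Kcnma1, Kcnmb1, Kcnj8 and Abcc9 each had their highest value in C6 and their lowest in A5, the mouse with the lowest summed smooth muscle markers and the highest summed brown and white fat markers. Cacna1c and Itpr1 were highest in A2. With the mean log2 CPM of the smooth muscle markers as a covariate, 0 of the 10 members passed 10% FDR, with a lowest adjusted p of 0.396. In this fit Cacna1c was at 0.30, Ano1 at −0.17 and Ryr3 at 0.52, close to their log2 fold changes without it. Kcna5 changed sign, to −0.068. Kcnma1 was at −0.0057, Kcnmb1 at −0.019, Kcnj8 at 0.039 and Abcc9 at −0.054.

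**Figure D5:**
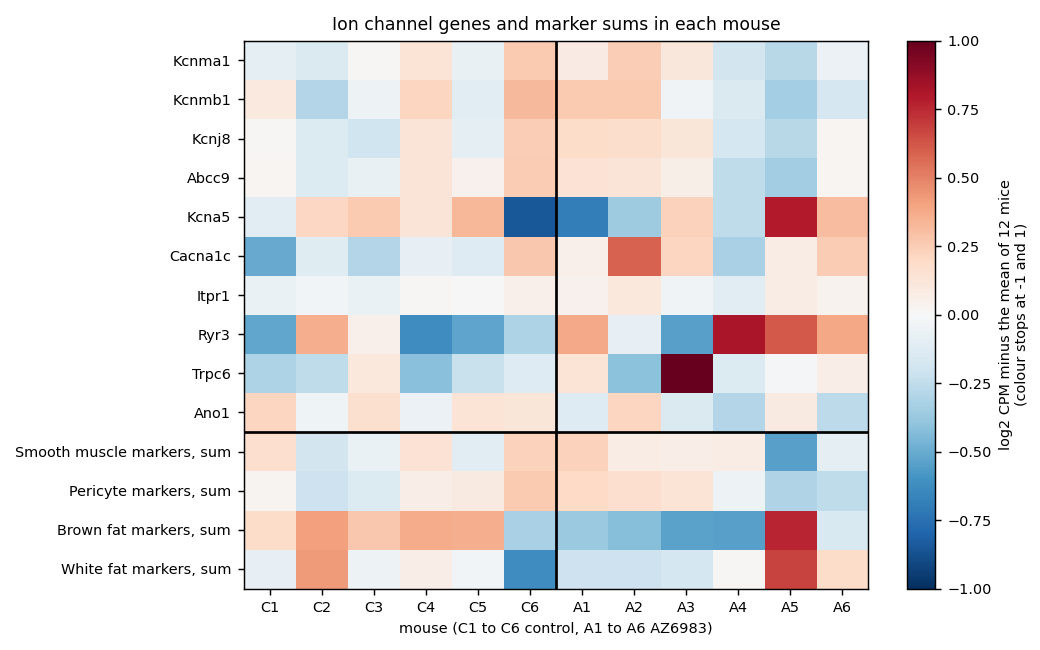
Log2 CPM of the 10 genes in each mouse, and of 4 sums of marker genes below the line, minus the mean of the 12 mice; red is higher, blue lower, and the colour stops at −1 and 1. Kcnma1, Kcnmb1, Kcnj8, Abcc9 and the smooth muscle sum are all blue in A5, where Kcna5 and the fat sums are red.

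Around the members, 64 other ion channel and calcium handling genes were listed by role, and 58 of them were tested. None passed 10% FDR in edgeR, with a lowest adjusted p of 0.478. An unadjusted p under 0.05 was found for 4 of the 58, against 10.2% of all genes. All 4 were higher in AZ6983 mice, as were 1170 of the 1616 genes with such a p in the whole table. The median log2 fold change of the 58 was 0.036. Of 18 potassium channel genes 1 had such a p: Kcna3, a channel of lymphocytes, with a log2 fold change of 1.62 that was 0.28 without A4, the mouse rich in thymocyte markers. Of 7 voltage-gated calcium channel genes 1 had such a p: Cacna1g, the T-type channel Cav3.1, whose mean was 7.38 CPM (SD 2.27) with vehicle and 9.93 CPM (SD 1.75) with AZ6983. The log2 fold change of Cacna1g was 0.43 (SE 0.188, adjusted p = 0.478). Once the fit held each mouse's percentage of reads outside genes, this became −0.056. That percentage was also lower in most control mice than in every AZ6983 mouse, so it cannot be told apart from treatment. Cacnb3, a beta subunit of these channels, had a log2 fold change of −0.26 (adjusted p = 0.528).

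Of 13 genes of calcium release, uptake and extrusion 1 had an unadjusted p under 0.05, Itpr3, the type 3 IP3 receptor, with a log2 fold change of 0.24 (SE 0.107, adjusted p = 0.487). Atp2a3, the calcium pump SERCA3, was at 0.22 (adjusted p = 0.541) and Itpr2 at 0.30 (adjusted p = 0.558), which was 0.076 without A5. Ryr2, at 3.41 CPM per kilobase the most abundant ryanodine receptor here, was at 98.2, 104 and 113 CPM (lowest, median and highest) in control mice and 67.7, 86.5 and 129 CPM in AZ6983 mice. Its values in 5 of 6 AZ6983 mice lay below the lowest control while A2 lay above the highest, and the log2 fold change of −0.19 (SE 0.123, adjusted p = 0.576) became −0.33 without A2 (adjusted p = 0.495). Ryr1, the skeletal muscle receptor, ran from 10 to 701 counts per mouse, and its 4 highest mice, C2, A2, A5 and A6, were also the 4 highest in summed skeletal muscle markers. Of 14 store-operated and TRP channel genes 1 had an unadjusted p under 0.05, the mechanically gated Piezo1, with a log2 fold change of 0.24 (SE 0.108, adjusted p = 0.487). Piezo1 was highest in A5 (76.6 CPM). With the percentage of reads outside genes in the fit, Piezo1 was at 0.053 and Itpr3 at 0.11, and that percentage cannot be told apart from treatment. Of 6 chloride channel genes 0 had an unadjusted p under 0.05, with Lrrc8a, of the volume-regulated channel, at −0.16 (adjusted p = 0.575) and Ano10 at −0.077 (adjusted p = 0.651).

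The other isoforms of the KATP and BK subunits were scarce. Kcnj11, the pore Kir6.2, was at 0.117 to 0.301 CPM per kilobase and Abcc8, the receptor SUR1, at 0.0129 to 0.0845, far below the 16.6 to 23.9 of Kcnj8 and 47.3 to 71.8 of Abcc9. Kcnmb4 was at 0.0325 to 1.36 and Kcnmb2 at no more than 0.0261 CPM per kilobase, with 0 to 3 counts per mouse, against 11.3 to 18.0 for Kcnmb1. Among IP3 receptors Itpr1 (27.1 to 31.5 CPM per kilobase) stood above Itpr2 (8.17 to 19.6) and Itpr3 (1.91 to 3.37) without overlap.

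For each member, the gene whose log2 CPM was most like its own over the 12 mice was found by Pearson's r among all genes tested, as a description only, since the maximum over 15857 genes is high for any gene. These were Large for Kcnma1 (r = 0.946), P3h1 for Kcnmb1 (0.952), Pmm2 for Kcna5 (0.965), Xxylt1 for Kcnj8 (0.946) and Rab31 for Abcc9 (0.955). For the others they were Fat1 for Cacna1c (0.968), Gng11 for Trpc6 (0.920), Rnf149 for Ano1 (0.878), Gpc4 for Itpr1 (0.961) and Il18r1 for Ryr3 (0.910). Mrvi1, which encodes an IP3 receptor-associated substrate of cyclic GMP kinase, was the second most alike for Kcnmb1 (0.943). No member was among the 3 genes most like another member.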

How the data were processed

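RNA of the thoracic aorta of 12 ApoE-/- mice (6 control, 6 AZ6983) was depleted of ribosomal RNA, made into stranded total RNA libraries and sequenced from both ends by 75 bases. The authors deposited raw counts per gene symbol for 25284 genes and 3 rows that name no gene, which were left out (reads on no gene 8.02% to 14.9%, aligned to several places 18.1% to 23.2%, ambiguous 0.606% to 0.698% of a mouse's reads). The submitters' processing notes name CASAVA 1.8.2, STAR 2.5.2b, HTSeq 0.6.1p1 and mm10, without settings. The annotation is not given in the sources used here. Groups came from the sample titles. The column of A1 matches its title in 3 of 4 digits. Mice are separate animals, and no batch or pairing is given.

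Counts were tested across all genes with edgeR 4.0.16 in R 4.3.3 (TMM, filterByExpr, quasi-likelihood test, no covariate), with Benjamini-Hochberg adjustment over the 15857 genes kept and the study's 10% FDR. The steps were run on simulated counts. There edgeR called 76 of 100 genes changed by 1 on the log2 scale, 38 of 100 changed by 0.5 and 9 unchanged genes. A change of 0.5 or of 1 can thus go uncalled. The spread between simulated mice followed the trend over all genes, without a gene's own excess spread or unequal tissue content. These shares therefore need not hold for the real counts, where Col2a1 at a log2 fold change of −4.41 had an adjusted p of 0.447 in edgeR. The study's tool, DESeq2 1.42.0, and limma 3.58.1 (voom) were alternatives. The standard error of a log2 fold change is its size over the square root of F. Log2 CPM used a prior count of 2. Ratios were tested by exact permutation over the 924 assignments of mice. The members, the role and marker lists and the tests were chosen with earlier results of these data known. All members were named, with the 2 genes of smallest unadjusted p in each of 5 role lists, the other isoforms of members, the genes most alike over mice and marker genes that a result turns on. A result of this rule is not reported here. Of the 12 marker lists, each had 0 genes past 10% FDR in edgeR, whether endothelial, cardiac, macrophage, nerve, fibroblast, cartilage or 1 of those in the text. Since no gene of the whole table passed, this does not show equal tissue content. All 5 thymocyte and T cell markers tested had an unadjusted p under 0.05 (A4 was far highest in their sum), against 0 to 2 genes in each other list. The study's own DESeq2 list at 10% FDR holds Vwf as higher and Col2a1 as lower after AZ6983. Exon lengths and gene positions came from GENCODE M21 (GRCm38), promoters from RefSeq.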

Additional observations from a re-analysis of the deposited data

Results flagged for a closer look

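In the AZ6983 group, Trpc6 of mouse A3 stood apart at 2.99 log2 CPM, with the other 5 mice at 1.03 to 1.57, which is a gap to the nearest mouse of 0.727 of the whole range. It was the only such case among 24 groups of 6 (10 genes and 2 ratios in each treatment group), where chance gives about 1.2. The cause was not tested.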

How the results depend on the processing

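The count of members past 10% FDR was 0 in edgeR with all mice and in all 23 alternatives (DESeq2 and limma-voom in 2 forms each, 2 normalizations, genes unfiltered or held to a mean of at least 50 counts, which left out Ryr3, 5% FDR, 2 covariates and each mouse left out), and so was that of the other channel genes. DESeq2 with its defaults called 92 genes of the whole table and none of these, and 0 members had an unadjusted p under 0.05 in it. Without A5, 27 genes of the whole table passed in edgeR, against 0 with all mice. A covariate for the percentage of reads outside genes reversed the log2 fold changes of Kcnmb1 (0.046), Kcna5 (−0.043), Cacna1c (−0.032), Itpr1 (−0.0088), Cacna1g (−0.056), Ano10 (0.027), Abcc8 (−0.54), Ryr1 (−0.87) and Kcnmb4 (0.21). It also reversed the difference in the Kcnmb1 to Kcnma1 ratio (0.11, exact permutation p = 0.0758), an alternative chosen after seeing the data, like the transcript lengths. Other reversals were Kcna5 in limma-voom (−0.0041), with quality weights (−0.074) and with the smooth muscle score (−0.068), Kcnma1 with quality weights (0.032) and Kcnj8 with no filter (−0.0053). The causes were not tested. With 1 mouse left out, the log2 fold change ran from −0.094 to 0.028 for Kcnma1, from −0.13 to 0.0092 for Kcnmb1, from −0.17 to 0.16 for Kcna5, from −0.035 to 0.068 for Kcnj8, from −0.068 to 0.25 for Abcc8, from −1.01 to 0.20 for Kcnmb4, and the Kcnmb1 to Kcnma1 ratio difference from −0.067 to 0.0078. The Abcc9 to Kcnj8 ratio and both subunit correlations were run in fewer alternatives, 12 with 1 mouse left out and 2 others. They stayed past the threshold in each of these. No paired analysis was possible because the labels give no replicate numbers shared by the groups. Under about 100 counts per mouse, as in Ryr3 and Trpc6, counting error limits the value.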
